A study of Homo sapiens with 12 samples.

Results

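Genes of the unfolded protein response (UPR) were followed in A2780 cells, an established human ovarian carcinoma line. Cells exposed for 6 h to 3 µM of a cell cycle inhibitor, which the sources do not name, were set against untreated control cells. The genes were XBP1, HERPUD1, DDIT3, ATF4, ATF6, HSPA5, ERN1, EIF2AK3, DNAJB9 and SEL1L, 10 of the 20783 genes named by a single-gene probe on either platform. They were selected with their treated against control differences known, so the differences of these genes are given as a description. Where a probe is named as called, this states only that it passed the limits used for all probes, and it is no independent test of a gene picked on this comparison. Every probe annotated to 1 of these symbols alone was kept, which gave 24 probe sets for all 10 genes on Affymetrix HGU133plus2 arrays (AFFX) and 11 probes for 9 genes on Applied Biosystems Human Genome Survey arrays (ABI). HSPA5 had no single-gene ABI probe.

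There were 3 treated and 3 control arrays on each platform, 12 in all. Attached cells alone were harvested, the biological replicates of a condition were pooled into 1 RNA sample, and the 3 arrays of a condition are aliquots of that pool. Array to array spread is therefore technical, and each comparison sets 1 treated pool against 1 control pool. In such bulk RNA, fewer cells that express a gene and less of its RNA in each cell cannot be told apart, and signals are relative to the other RNAs on the array.

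The UPR answers an overload of misfolded proteins in the endoplasmic reticulum (ER). Sensors in the ER membrane, IRE1 (encoded by ERN1), PERK (encoded by EIF2AK3) and ATF6, start separate branches. IRE1 splices XBP1 mRNA so that it encodes an active transcription factor, PERK phosphorylates eIF2α and favours the translation of ATF4, and ATF6 is cut to release a transcription factor. These factors switch on genes for chaperones, for the degradation of ER proteins and, in the case of DDIT3 (CHOP), for cell death under lasting stress.

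UPR factors are known to bind short elements near the start of their target genes, and the region from 250 bases before to 50 bases after each annotated start was searched on both strands. The sequences come from RefSeq (GRCh38.p14), which gave a start region for 10 of 10 genes and a second one for XBP1, DDIT3 and ATF4, and a gene counted once if any of its regions held the letters. The ER stress response element (ERSE), searched as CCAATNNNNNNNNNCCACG, was found in XBP1 from base -52 to -34 and in HSPA5 from base -66 to -48, and in 25 of 27305 genes in all (0.0916%). The related ERSE-II, searched as ATTGGNCCACG, was found in HERPUD1 from base -117 to -107, and in 19 genes in all (0.0696%). The core of the amino acid response element, TTGCATCA, was found in HERPUD1 from base -176 to -169 and in 1.08% of all genes, and the core of the UPR element, TGACGTGG, was found in none of the 10 genes and in 0.927% of all genes. The searched motifs do not overlap each other in these windows. The regions of XBP1, HERPUD1 and HSPA5 are shown because they hold the matches, which are in capitals, and that of DNAJB9 because its signal was also far lower in treated cells while its region held none of these letters. A match is a description of the sequence and not evidence of binding. The 180 bases before the start are printed, 5′ to 3′ on each gene's strand, at chr22:28800570-28800749 (minus strand) for XBP1, chr16:56931962-56932141 (plus strand) for HERPUD1, chr9:125241344-125241523 (minus strand) for HSPA5 and chr7:108569694-108569873 (plus strand) for DNAJB9.
XBP1: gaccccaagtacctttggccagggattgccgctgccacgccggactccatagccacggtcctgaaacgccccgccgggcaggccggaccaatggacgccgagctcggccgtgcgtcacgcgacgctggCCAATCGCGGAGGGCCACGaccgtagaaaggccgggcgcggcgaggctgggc
HERPUD1: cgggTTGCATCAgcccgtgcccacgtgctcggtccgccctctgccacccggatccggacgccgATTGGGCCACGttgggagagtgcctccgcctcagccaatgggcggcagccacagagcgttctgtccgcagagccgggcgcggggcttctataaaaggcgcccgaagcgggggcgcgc
HSPA5: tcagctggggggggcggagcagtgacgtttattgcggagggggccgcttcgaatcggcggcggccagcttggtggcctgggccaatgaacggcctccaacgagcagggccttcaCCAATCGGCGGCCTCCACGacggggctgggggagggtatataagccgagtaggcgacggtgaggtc
DNAJB9: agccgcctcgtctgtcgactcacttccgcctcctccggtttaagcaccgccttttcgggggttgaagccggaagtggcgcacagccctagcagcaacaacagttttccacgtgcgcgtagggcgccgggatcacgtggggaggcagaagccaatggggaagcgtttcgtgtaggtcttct

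On AFFX, 9 of the 24 probe sets were lower in treated cells by the call used throughout, an adjusted p under 0.05 in limma with a change of at least 1.5-fold, against 8.95% of all probe sets. No member probe set was called higher, against 1.75% of all. By gene, counted by the probe with the lowest p, 6 of 10 were lower, against 14.2% of all AFFX genes, and 0 were higher, against 2.49%. On ABI, 5 of 11 probes were lower, against 10.1% of all probes, and 1 was higher, against 7.71%. These stood for 5 lower genes of 9, against 14.8% of ABI genes, and 1 higher gene, against 6.31%. XBP1, HERPUD1, DDIT3, EIF2AK3 and DNAJB9 were lower on both platforms, 5 of the 9 with probes on both, against 10.5% of the 16186 genes with probes on both. No member was higher on both, against 0.42%. Because the genes were chosen on this comparison, nothing is read from these shares.

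**Figure D1:**
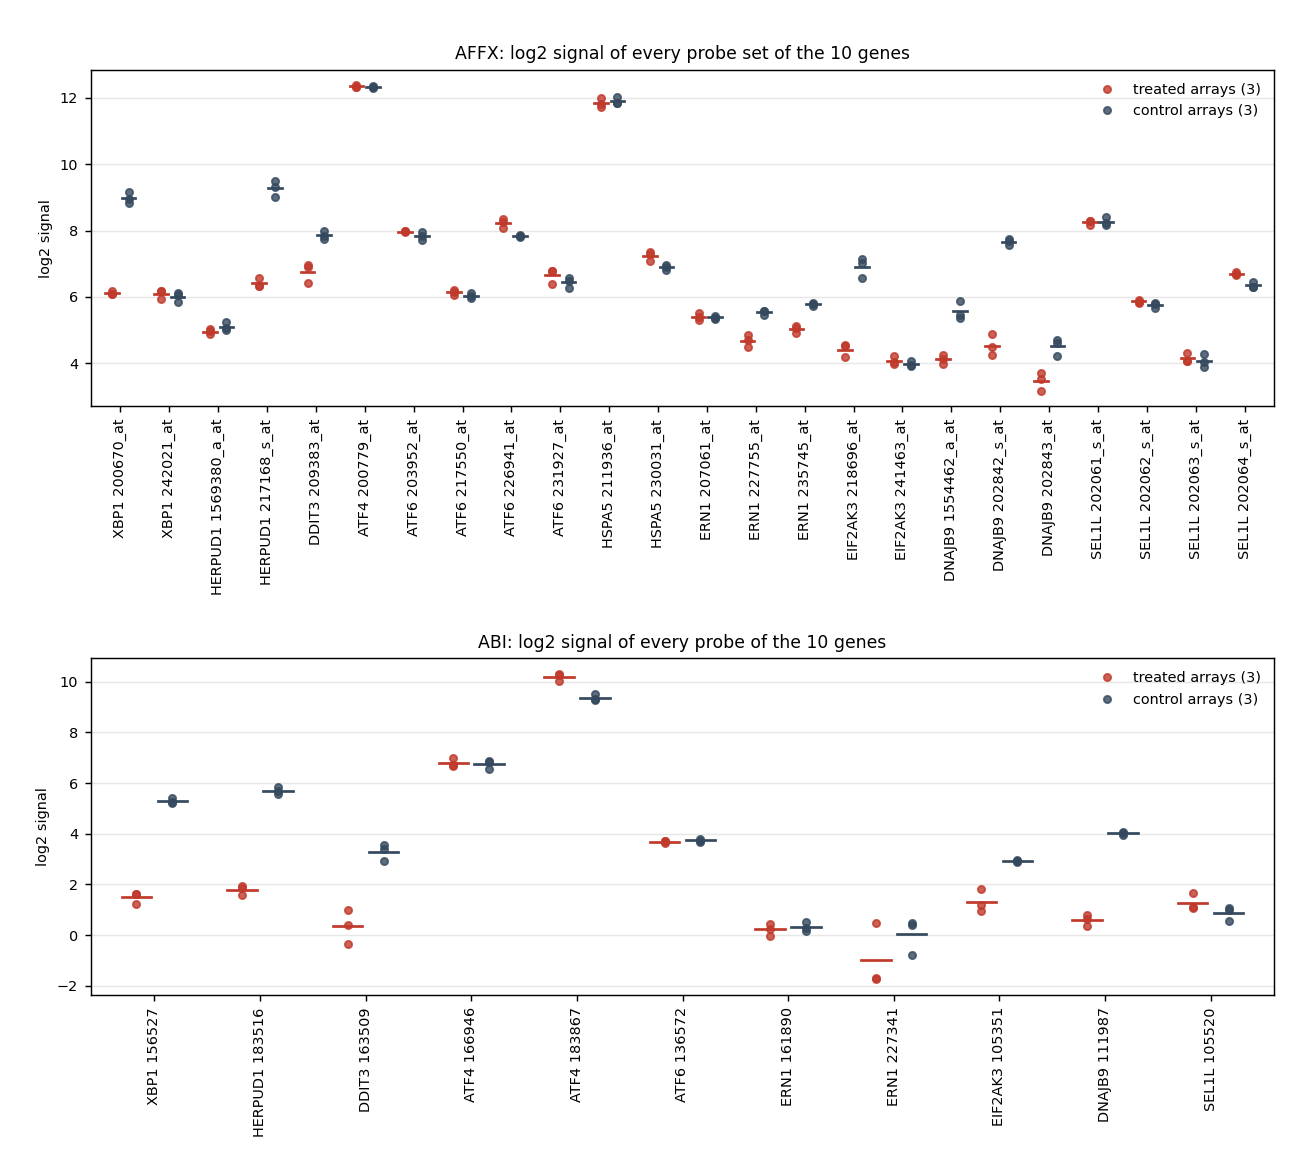
Log2 signal (vertical axis) of each AFFX probe set (upper panel) and each ABI probe (lower panel) of the 10 genes (horizontal axis). Points are single arrays, 3 treated (red, left of each pair) and 3 control (grey, right), and bars are their means; for XBP1 on AFFX 200670_at the treated arrays lie between 6.08 and 6.18 and the control arrays between 8.82 and 9.16.

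Among the transcription factors, XBP1 mRNA (gene at chr22:28794560-28800569 in RefSeq, GRCh38.p14, as for the positions that follow) was far less abundant in treated cells. AFFX probe set 200670_at gave log2 signals of 6.09, 6.08 and 6.18 on treated arrays, against 9.16, 8.96 and 8.82 on control arrays. ABI probe 156527 gave 1.61, 1.64 and 1.23 on treated arrays, against 5.41, 5.27 and 5.22 on control arrays. All treated arrays lay below all control arrays on both platforms, with gaps many times the spread within a group. The log2(Fold Change) was -2.86 ± 0.0986 (SE) on AFFX, 7.26-fold lower, and -3.80 ± 0.162 on ABI, 14-fold lower. A further AFFX probe set annotated to XBP1, 242021_at, gave 6.17, 6.17 and 5.94 on treated arrays, against 5.85, 6.13 and 6.04 on control arrays, a change of 0.08 ± 0.102 with overlapping groups. The spliced and unspliced forms of XBP1 mRNA were not told apart, since the probes' positions were not analysed here.

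DDIT3 (chr12:57516588-57520517) encodes CHOP, a transcription factor induced late in the UPR and by other stresses that act through ATF4. AFFX 209383_at gave 6.96, 6.43 and 6.90 on treated arrays, against 7.84, 7.97 and 7.75 on control arrays. ABI 163509 gave 1.01, 0.41 and -0.34 on treated arrays, against 3.54, 2.94 and 3.39 on control arrays. The groups did not overlap on either platform, although the treated ABI arrays were widely spread. The log2(Fold Change) was -1.09 ± 0.134 on AFFX (2.14-fold lower) and -2.93 ± 0.377 on ABI (7.61-fold lower), the widest gap between platforms among the genes lower on both by their called probe of lowest p, with ABI minus AFFX at -1.83 ± 0.40.

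ATF4, the transcription factor whose translation rises when PERK or a related kinase phosphorylates eIF2α, was not called lower with any probe. AFFX 200779_at gave 12.38, 12.34 and 12.33 on treated arrays, against 12.35, 12.31 and 12.34 on control arrays. ABI 166946 gave 6.99, 6.72 and 6.68 on treated arrays, against 6.87, 6.85 and 6.57 on control arrays. The groups overlapped in both cases, with log2(Fold Change) of 0.02 ± 0.0772 and 0.04 ± 0.158. The other ABI probe, 183867, gave 10.31, 10.26 and 10.01 on treated arrays, against 9.28, 9.52 and 9.30 on control arrays, with no overlap and a log2(Fold Change) of 0.82 ± 0.148 (1.77-fold higher). Among other settings, that call on 183867 was lost with quantile normalization (0.19) and with centring on ribosomal protein gene probes (0.28), and when treated array 1 (0.77), treated array 2 (0.79), control array 1 (0.78) or control array 3 (0.79) was left out. These are mRNA signals and hold no measure of ATF4 translation.

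HERPUD1 (chr16:56932142-56944864), among the targets, encodes an ER membrane protein that takes part in the removal of misfolded proteins and is known as a gene strongly induced by ER stress. AFFX 217168_s_at gave 6.57, 6.32 and 6.34 on treated arrays, against 9.50, 9.30 and 9.02 on control arrays. ABI 183516 gave 1.87, 1.59 and 1.93 on treated arrays, against 5.84, 5.67 and 5.57 on control arrays. As for XBP1, every treated array lay far below every control array. The log2(Fold Change) was -2.86 ± 0.123 on AFFX (7.28-fold lower) and -3.90 ± 0.154 on ABI (14.9-fold lower). The other AFFX probe set, 1569380_a_at, gave 4.87, 4.98 and 5.02 on treated arrays, against 5.01, 5.06 and 5.23 on control arrays, with overlapping groups and a log2(Fold Change) of -0.14 ± 0.0908.

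DNAJB9 (ERdj4, chr7:108569874-108574850), a co-chaperone of the ER lumen that is a known XBP1 target, was lower in treated cells with all its probes. AFFX 202842_s_at gave 4.50, 4.87 and 4.24 on treated arrays, against 7.74, 7.69 and 7.56 on control arrays. ABI 111987 gave 0.36, 0.81 and 0.62 on treated arrays, against 4.08, 3.97 and 4.02 on control arrays. Neither set of arrays overlapped with its controls, and the log2(Fold Change) was -3.13 ± 0.139 on AFFX (8.74-fold lower) and -3.43 ± 0.157 on ABI (10.8-fold lower). AFFX 1554462_a_at gave 3.99, 4.24 and 4.14 on treated arrays, against 5.46, 5.87 and 5.35 on control arrays (-1.44 ± 0.13). AFFX 202843_at gave 3.69, 3.52 and 3.16 on treated arrays, against 4.60, 4.71 and 4.21 on control arrays (-1.05 ± 0.153). Treated arrays lay below control arrays here too. The mean treated signals of 1554462_a_at and 202843_at lay under the AFFX median of the leukocyte marker probes (4.24). That level is taken here as that of RNAs an ovarian carcinoma line should lack, so the size of these drops is uncertain. The treated arrays of 202842_s_at, with a mean of 4.53, lay close to it too, so its fold is also uncertain in size.

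HSPA5 (BiP), the main chaperone of the ER lumen and a standard readout of the UPR, was not called lower on AFFX. Probe set 211936_at gave 11.83, 11.99 and 11.74 on treated arrays, against 12.02, 11.86 and 11.85 on control arrays, a log2(Fold Change) of -0.06 ± 0.0954 with overlapping groups. The value depended on the scaling. It was -0.47 with hybridisation control centring and -0.22 with ribosomal centring or quantile normalization, and was not called in these settings. Probe set 230031_at gave 7.28, 7.36 and 7.09 on treated arrays, against 6.90, 6.98 and 6.81 on control arrays, without overlap but under the fold limit (0.34 ± 0.0952). XBP1 and HSPA5 both held the ERSE letters in the regions shown above. Their AFFX changes were -2.86 (200670_at) and 0.08 (242021_at) for XBP1, and -0.06 (211936_at) and 0.34 (230031_at) for HSPA5. Any part of the element in these changes was not tested.

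SEL1L encodes the adaptor of the HRD1 ubiquitin ligase in ER-associated degradation. Of its 4 AFFX probe sets, 202061_s_at, 202062_s_at and 202063_s_at had log2(Fold Change) of -0.02 ± 0.0901, 0.10 ± 0.083 and 0.08 ± 0.114 with overlapping groups. Probe set 202064_s_at gave 6.67, 6.69 and 6.75 on treated arrays, against 6.31, 6.30 and 6.46 on control arrays (0.34 ± 0.0835). ABI 105520 gave 1.65, 1.11 and 1.08 on treated arrays, against 1.06, 0.99 and 0.58 on control arrays (0.41 ± 0.227). On these probes treated arrays lay above control arrays, on ABI by a gap of only 0.0275, and neither change passed the thresholds.

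The sensors differed from each other. EIF2AK3 (PERK, chr2:88556741-88628145) was lower in treated cells on both platforms. Its ABI call did not hold in every alternative fit, as given at the end. AFFX 218696_at gave 4.51, 4.18 and 4.54 on treated arrays, against 7.13, 7.01 and 6.58 on control arrays. ABI 105351 gave 1.82, 0.97 and 1.18 on treated arrays, against 2.88, 2.92 and 2.98 on control arrays. The groups were separate on both, with log2(Fold Change) of -2.50 ± 0.146 (5.65-fold lower) and -1.61 ± 0.243 (3.04-fold lower). The treated mean of 218696_at (4.41) lay close to the AFFX leukocyte marker median (4.24), with the array at 4.18 below it. Its fold is therefore uncertain in size. The AFFX probe set 241463_at had a change of 0.09 ± 0.0912 at signals below the leukocyte marker median in both groups.

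ERN1 (IRE1) gave a divided picture. AFFX 227755_at gave 4.84, 4.49 and 4.70 on treated arrays, against 5.59, 5.46 and 5.57 on control arrays. AFFX 235745_at gave 5.12, 4.92 and 5.05 on treated arrays, against 5.80, 5.83 and 5.71 on control arrays. Both were called lower, with separate groups and log2(Fold Change) of -0.86 ± 0.101 and -0.75 ± 0.0869. Their signals were low, with a treated mean of 4.68 for 227755_at against the AFFX leukocyte marker median of 4.24. All arrays of both also lay under the mean of the brightest probe set of the leukocyte marker CD3D (5.91). The size of these drops is therefore uncertain. AFFX 207061_at, by contrast, gave 5.50, 5.31 and 5.38 on treated arrays, against 5.38, 5.35 and 5.44 on control arrays, a change of 0.01 ± 0.0854. The called and uncalled ERN1 probe sets thus differ, and which transcripts each reads was not analysed here. ABI 161890 gave 0.45, -0.01 and 0.25 on treated arrays, against 0.54, 0.18 and 0.30 on control arrays. ABI 227341 gave 0.48, -1.74 and -1.69 on treated arrays, against 0.49, -0.79 and 0.41 on control arrays. Both ABI probes had overlapping groups, with log2(Fold Change) of -0.11 ± 0.181 and -1.02 ± 0.712, and the spread of 227341 leaves its size undetermined.

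ATF6, the sensor that is itself a transcription factor once cut in the Golgi, was not called with any probe. AFFX 203952_at, 217550_at and 231927_at had log2(Fold Change) of 0.13 ± 0.0854, 0.11 ± 0.0839 and 0.21 ± 0.123 with overlapping groups. AFFX 226941_at gave 8.27, 8.34 and 8.09 on treated arrays, against 7.81, 7.83 and 7.87 on control arrays, separate groups with a change of 0.39 ± 0.0892. ABI 136572 gave 3.73, 3.62 and 3.70 on treated arrays, against 3.79, 3.69 and 3.73 on control arrays (-0.05 ± 0.115). With quantile normalization the change of 226941_at was 0.61 and was called higher. With arrays centred on the hybridisation controls, the sign turned for the uncalled AFFX probe sets with separate groups. These were ATF6 226941_at (-0.02), HSPA5 230031_at (-0.07) and SEL1L 202064_s_at (-0.07).

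**Figure D2:**
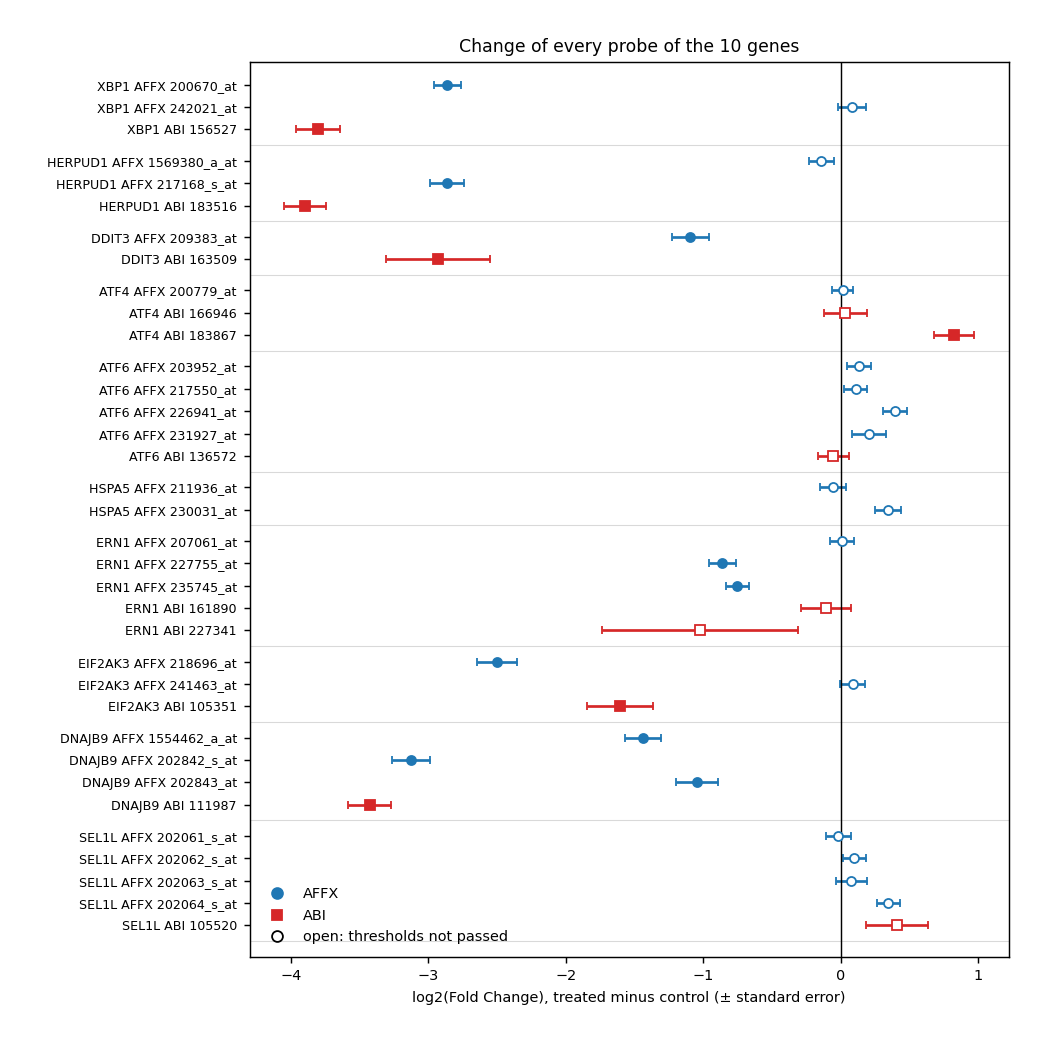
Log2(Fold Change), treated minus control (horizontal axis), of every AFFX (circles) and ABI (squares) probe of the 10 genes (vertical axis), with bars for the standard error of the limma fit. Filled symbols were called, open ones were not; XBP1 and HERPUD1 lie at -2.86 on AFFX and at -3.80 and -3.90 on ABI, while HSPA5 211936_at lies at -0.06.

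Probes of 1 gene did not always give the same call. Of the 8 genes with several AFFX probe sets, 4 held both called and uncalled ones (XBP1, HERPUD1, ERN1 and EIF2AK3), and of the 2 genes with several ABI probes, 1 did (ATF4). The median log2(Fold Change) was -0.0031 over the 24 AFFX probe sets of the 10 genes, against 0.12 for all probe sets. It was -1.02 over the 11 ABI probes of 9 genes, against 0.16 for all probes. The ABI median is the value of ERN1 227341, whose size is undetermined. Genes have unlike numbers of probes on the platforms, so these medians are not compared. XBP1 and HERPUD1 moved further on ABI than on AFFX, by -0.94 ± 0.19 and -1.03 ± 0.197 on the log2 scale. The study reported a slightly wider span of fold changes on ABI among its differentially expressed genes. The difference is therefore not read as a trait of XBP1 and HERPUD1. EIF2AK3 moved less on ABI, with ABI minus AFFX at 0.89 ± 0.283, and DNAJB9 (202842_s_at) differed by -0.30 ± 0.21.

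Set among the 16186 genes measured on both platforms, each by its probe of lowest p, XBP1 had 77 genes with a larger drop on AFFX and 64 on ABI. HERPUD1 had 75 and 53, and DNAJB9 had 47 and 105. EIF2AK3 had 140 on AFFX but 1073 on ABI, DDIT3 had 1326 and 214, and ERN1 2090 and 2074. The ABI place of ERN1 rests on probe 227341, whose size is undetermined, so its 2 places are not compared. ATF4 had 5443 and 14699, ATF6 13799 and 7016, and SEL1L 12784 and 11461. The gene whose pair of changes was nearest to that of XBP1 was ZFP36L2, which encodes an RNA-binding protein (Euclidean distance of the pair of log2 changes 0.0786), followed by HERPUD1 (0.0926), GJC1 (0.198), ADM (0.206) and ZNF518A (0.217). The nearest to HERPUD1 were ZFP36L2 (0.0379), XBP1 (0.0926), GJC1 (0.155), TRIM13 (0.186) and RIOX1 (0.192). Likeness here rests on 2 values per gene from the same RNA pools.

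The other genes of the pathway were taken from 5 lists, of 181 genes in all, with the 10 genes above left out. The lists were drawn up with earlier results of these data known. Their shares and adjusted p-values are therefore a description and no independent test. Genes named below were in part picked for large changes, and their folds are those of the probe of lowest p. AFFX measured 172 of them, with 26 lower and 3 higher, and ABI measured 166, with 25 lower and 10 higher. The lower share was 15.1% on each platform, close to the 14.2% and 14.8% of all genes, so the pathway as a whole did not stand out by this count. The median log2(Fold Change) was 0.17 on AFFX and 0.12 on ABI, against 0.16 and 0.09 over all genes. The counts depended on the scaling: 54 genes were lower and 0 higher on AFFX with centring on the hybridisation controls, and 58 lower and 0 higher on ABI with centring on the ribosomal protein genes. Both platforms held 162 of the genes, of which 18 were called lower on each (11.1%, against 10.5% of all genes), 1 higher on each (0.617%, against 0.42%), and none in opposite directions.

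**Figure D3:**
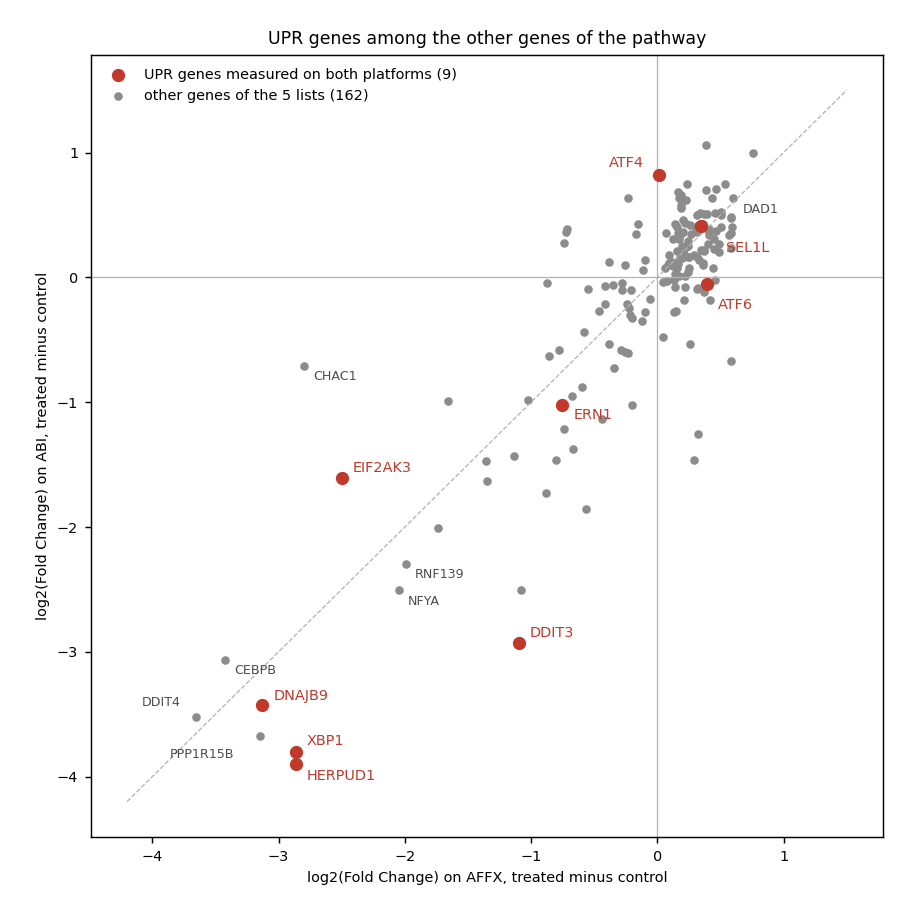
Log2(Fold Change), treated minus control, on AFFX (horizontal axis) and on ABI (vertical axis) of the 9 UPR genes measured on both platforms (red, named) and of the 162 other genes of the 5 lists (grey), each by its probe of lowest p; the dashed line marks equal change. XBP1, HERPUD1 and DNAJB9 lie at the lower left with DDIT4, CEBPB and PPP1R15B, and most list genes lie near 0.

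Targets of the integrated stress response, the program that PERK shares with other eIF2α kinases, held the most calls. Of them, 13 of 34 were lower on AFFX (38.2%, against 14.2% of all genes) and none was higher (against 2.49%). On ABI, 10 of 33 were lower (30.3%, against 14.8%) and 2 were higher (against 6.31% of all genes). Of the 32 with probes on both platforms, 9 were lower on both (28.1%, against 10.5%). As the list was not drawn up blind to these data, nothing is read from these shares. The list median was -0.31 on AFFX and -0.17 on ABI. DDIT4, an inhibitor of mTOR signalling, averaged 7.08 ± 0.147 on treated and 10.73 ± 0.159 on control AFFX arrays (log2 signal, SD, n = 3 each) a 12.6-fold drop (limma, adjusted p = 4.68e-09). Its drop on ABI was 11.5-fold (limma, adjusted p = 0.000391). CEBPB, a partner of ATF4 and CHOP in transcription, was lower by 10.7-fold on AFFX and by 8.37-fold on ABI (adjusted p = 3.3e-08 and 0.00387). VLDLR was 3.34-fold and 4.03-fold lower, and STC2, a secreted glycoprotein, 3.15-fold and 1.98-fold lower. ATF3, a stress-induced repressor, was 2.11-fold lower on AFFX and 5.68-fold on ABI, and TRIB3, a pseudokinase induced by CHOP and ATF4, 2.55-fold and 3.11-fold. Other probes of these genes were not called: 1 of 2 was called for STC2 on each platform, 1 of 3 for ATF3 on AFFX and 1 of 2 for TRIB3 on ABI. CHAC1, which degrades glutathione and is induced through ATF4, was 6.96-fold lower on AFFX (adjusted p = 3.46e-07) and missed the threshold on ABI (log2(Fold Change) -0.71, adjusted p = 0.141). ASNS, asparagine synthetase, another ATF4 target, did not pass on either platform, with log2(Fold Change) of 0.09 and 0.12. Its AFFX probe set of lowest p averaged 3.74 on treated and 3.65 on control arrays. Both means lay under the AFFX leukocyte marker median (4.24), so that value cannot show whether ASNS RNA changed. Neither of its 2 AFFX probe sets was called. Its ABI probe of lowest p averaged 7.78 on treated and 7.66 on control arrays.

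Among sensors and regulators, 4 of 29 were lower on AFFX (13.8%, against 14.2% of all genes), 6 of 27 on ABI (22.2%, against 14.8%) and 3 on both (11.1%, against 10.5%). None was higher on AFFX (against 2.49%) or on ABI (against 6.31%). PPP1R15B, the constitutive subunit that directs a phosphatase to eIF2α, was lower by 8.84-fold on AFFX and by 12.8-fold on ABI (adjusted p = 1.28e-07 and 0.000832). NFYA, a subunit of the NF-Y factor that binds the CCAAT letters of the ERSE, was 4.13-fold and 5.68-fold lower, and NFE2L2 (NRF2), a PERK substrate, 2.03-fold and 1.97-fold lower. On AFFX, 4 of 6 probe sets of NFYA and 1 of 3 of NFE2L2 were called. On ABI, 1 of 2 probes was called for PPP1R15B and for NFYA. On ABI the treated signals of PPP1R15B, NFYA and CEBPB lay under the leukocyte marker median of that platform (-1.21), so their ABI folds are uncertain in size. PPP1R15A (GADD34), the stress-induced partner of the same phosphatase, was 1.64-fold lower on AFFX (1 of 2 probe sets called). Its log2(Fold Change) on ABI was 0.39 (limma, adjusted p = 0.21). DNAJC3 (0.40 and 0.51), MBTPS1 (0.17 and 0.35) and EIF2S1 (0.25 and 0.08), which encode a PERK inhibitor, the protease that cuts ATF6 and eIF2α itself, were not called on either platform by their probes of lowest p, although 1 of the 2 ABI probes of DNAJC3 was called higher.

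The chaperones and folding enzymes of the ER held few calls. Of them, 1 of 30 was lower (3.33%, against 14.2% of all genes) and 1 higher (against 2.49%) on AFFX. On ABI, 3 of 31 were lower (9.68%, against 14.8%) and 3 higher (against 6.31%). MOGS, the first glucosidase to trim N-glycans, was lower on both platforms, 1.6-fold and 1.93-fold. HSP90B1 (GRP94) was 1.68-fold higher on ABI (limma, adjusted p = 0.0219), with 1 of its 2 ABI probes called. The call was not made on AFFX (0.24). Among other settings, it was lost on ABI with ribosomal centring and without treated array 2 or control array 2. CALR (-0.39 and 0.12), PDIA4 (0.24 and 0.04), HYOU1 (0.14 and 0.43), MANF (0.17 and 0.14) and SDF2L1 (0.13 and -0.02), all ER luminal proteins that rise in the classical UPR, were not called on AFFX or ABI.

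In ER-associated degradation, 5 of 35 genes were lower on AFFX (14.3%, against 14.2% of all) and none higher (against 2.49%). On ABI, 4 of 36 were lower (11.1%, against 14.8%) and 1 higher (against 6.31%). RNF139, an ER ubiquitin ligase, was 3.98-fold lower on AFFX and 4.91-fold on ABI (adjusted p = 4.88e-08 and 0.00125). UBE2J2, an ER ubiquitin-conjugating enzyme, was 2.2-fold and 2.69-fold lower, with 1 of its 4 AFFX probe sets called. HERPUD2, the paralogue of HERPUD1, was 1.81-fold and 1.55-fold lower. EDEM1, an XBP1 target that feeds glycoproteins into degradation, had log2(Fold Change) of 0.22 and -0.08 and was not called, and SYVN1, the ligase partnered by SEL1L, was not analysed here for want of a single-gene probe. In ER entry and export, AFFX had 3 lower (6.82%, against 14.2% of all genes) and 2 higher (against 2.49%) of 44 genes. ABI had 2 lower (5.13%, against 14.8%) and 4 higher (against 6.31%) of 39. SEC24B, a COPII coat subunit, was lower on both (2.56-fold and 2.78-fold), as was SEC62, part of the translocon (1.52-fold and 1.84-fold). Of the 5 AFFX probe sets of SEC62, only 1 was called. DAD1, a subunit of the oligosaccharyltransferase, was the gene higher on both (1.52-fold and 1.55-fold, adjusted p = 0.000304 and 0.0223). Among other settings, DAD1 was not called higher on AFFX with arrays centred on their median, the ribosomal protein genes or the hybridisation controls. On ABI its call was not made with ribosomal centring or without treated array 2 or control array 2. Without treated array 3, only 1 list gene stayed higher on ABI, and the same held without control array 3. DAD1 and HSP90B1 thus did not both keep their ABI calls there.

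Array medians lay between 5.37 and 5.47 log2 units on AFFX and between 1.06 and 1.19 linear units on ABI. The median SD over all probes was 0.113 on treated and 0.0976 on control AFFX arrays, and 0.298 on treated and 0.261 on control ABI arrays. By this median AFFX arrays spread less, but that does not hold for every probe of the 10 genes. Of all AFFX calls 83.6% were lower in treated cells, and the share was 39.5% with no fold limit, where most calls were higher, 71.3% with quantile normalization, 96.6% with centring on the ribosomal protein genes and 99.2% with centring on the hybridisation controls. On ABI it was 56.7%, and 50.6% with quantile normalization, 52% with median centring and 96.6% with ribosomal centring. The 18 AFFX hybridisation control probe sets, which read bacterial transcripts spiked into each sample, averaged 9.76 on treated and 9.34 on control arrays. Of epithelial and ovarian markers, 2 of 9 on AFFX (KRT7 and PAX8) and 1 of 8 on ABI (MUC16) lay at least 2 log2 units over the leukocyte marker median, and EPCAM did not. The same held for 1 of 11 leukocyte markers on each platform and for 4 of 8 fibroblast and endothelial markers on AFFX and 5 of 8 on ABI. Summed on AFFX, the epithelial list gave 9.96 to 10.06 on treated arrays and 9.82 to 9.85 on control arrays, the leukocyte list 9.45 to 9.60 and 9.23 to 9.26, and the fibroblast list 13.59 to 13.73 and 13.60 to 13.71. On ABI the sums were 3.52 to 3.75 on treated and 3.20 to 3.61 on control arrays for the epithelial list, 4.60 to 4.89 and 4.06 to 4.34 for the leukocyte list, and 7.96 to 8.11 and 7.74 to 7.94 for the fibroblast list. The markers called were COL3A1 on AFFX (-1.79) and KRT18 on ABI (-0.87), both lower, and MUC16 (1.16), COL1A1 (1.13) and NKG7 (0.84) on ABI, all higher. The part of these differences in the results was not tested.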

How the data were processed

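Signals of 12 arrays of A2780 RNA were analysed, 3 treated and 3 control arrays on each platform, grouped by the sample titles. The AFFX values are on the log2 scale as deposited by the authors, who summarised probe sets with RMA (version not stated) and report quantile normalization. The medians of the deposited arrays still differed (5.37 to 5.47). Quantile normalization run here as an alternative changed the AFFX calls from 4888 lower and 958 higher to 4513 lower and 1815 higher. The ABI values are linear intensities of chemiluminescence, deposited by the authors after scaling to a global median, and log2 was taken here. No detection calls were used. Gene names came from the platform annotation, and probes of several or no genes entered the adjustment alone. AFFX control probe sets (62) were set aside, which left 54613 probe sets and 33096 ABI probes.

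Each platform was fitted on its own with R 4.3.3 and limma 3.58.1 (lmFit, eBayes, unpaired treated against control), with Benjamini-Hochberg adjustment over all probes. Probes were called at 1.5-fold or more with an adjusted p under 0.05. A gene was counted by its probe of smallest p in the equal-variance t-test of the study's methods, which leans towards larger changes. Fold changes of low ABI signals are the least certain. The fit was run on simulated data with independent noise and planted changes, without shifts shared by an array or spread between cultures. That run checks the code and not the design with 1 pool per condition.

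The members and lists were chosen with earlier results of these data known. The pathway genes named were up to 4 of each list with the largest AFFX change among those called alike on both platforms, any called oppositely, and 16 known UPR genes set down whatever they did. Alternatives covered the block, scaling, offset, dim probes, spread model, test, fold limit, choice of probe and each array left out in turn. Start regions were searched by exact letters in RefSeq sequences.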

Additional observations from a re-analysis of the deposited data

How the results depend on the processing

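The log2(Fold Change) of the called probes of XBP1, HERPUD1, DDIT3, DNAJB9 and EIF2AK3 kept its sign under every alternative run that kept the probe (DNAJB9 202843_at was left out as dim in 1), and so did that of the called AFFX probe sets of ERN1. The ABI call on EIF2AK3 is the exception that lost its call, as given next. The change of XBP1 ranged from -3.28 to -2.77 on AFFX 200670_at and from -4.35 to -3.40 on ABI, and that of HERPUD1 from -3.28 to -2.75 on AFFX 217168_s_at and from -4.44 to -3.56 on ABI. With ribosomal centring, ABI ATF6 (-0.60) and ERN1 161890 (-0.65) were called lower.

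Same-numbered arrays did not deviate together in every pair (correlations 0.00403 to 0.327 on AFFX and -0.00667 to 0.0717 on ABI). Arrays of unlike number reached up to 0.324 on AFFX and 0.027 on ABI. The sample titles state no pairing and these correlations cannot settle it, so the unpaired fit of the methods was kept. With the replicate block, ABI calls dropped to 2236 (5900 without it), with 16 pathway genes lower (25 without it) and 0 higher (10), 84.5% of the calls were lower (56.7% without it), and the calls on ATF4 183867 and EIF2AK3 105351 were lost. AFFX calls were 5848 with the block and 5846 without it.

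Of AFFX pathway genes, 26 were lower by the main rule, 45 with no fold limit, 13 with a 2-fold limit, 16 by the median over probes and 54 with hybridisation control centring, an alternative chosen after seeing the data. The 3 higher ones became 0 with median, ribosomal or hybridisation control centring or a 2-fold limit, 1 with the methods' t-test or the median over probes, 11 with quantile normalization, 68 with no fold limit and 2 to 8 with 1 array left out (7 without treated array 3, 8 without control array 1). AFFX calls in all were 21062 with no fold limit (39.5% of them lower), 2606 with a 2-fold limit and 10458 with hybridisation control centring.

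On ABI, ribosomal centring gave 58 pathway genes lower and 0 higher. The 10 higher ones were 17 with no fold limit, 0 with a 2-fold limit and 0 to 6 with 1 array left out (0 without treated array 2 or control array 2). ABI calls in all were 3261 with a 2-fold limit and 2964 to 4093 with 1 array left out. The cause of these shifts was not tested. An offset on AFFX was not run, since RMA values are already on a log scale. With 1 pool per condition, no spread between cultures is known, and small changes on ABI lie within its array spread.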
